A study of Mus musculus with 2 samples.

Results

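The genes of the proteasome, the particle that degrades ubiquitin-tagged proteins, were examined in total RNA sequencing of the mouse cerebral cortex. Members were taken by symbol: all genes named Psma, Psmb, Psmc, Psmd, Psme, Psmf or Psmg with a number and with at least 1 protein-coding transcript, without pseudogenes named as such and without the immunoproteasome subunits Psmb8, Psmb9 and Psmb10. The rule found 47 of the 55536 annotated genes, of which 31 encode subunits of the constitutive particle (14 of its 20S core and 17 of its 19S cap). The other 16 encode assembly chaperones, activators, an inhibitor, tissue-restricted paralogs and Psmc3ip, which shares only the start of its symbol with the family. Tissue came from the cerebral cortex of the left side in 14-day-old males of the strain B6CASTF1/J, which crosses C57BL/6 with CAST, and no treatment is named. The study comprised 2 libraries, replicates 1 and 2 of 1 group, each made from 300 ng of RNA. The labels number them as biological replicates with a biosample each, yet the donor entry is the same, and 3 males are mentioned with no word on pooling. Whether the libraries came from separate animals is thus not stated. With 1 group of 2 libraries there was no comparison of conditions and no test: the smallest two-sided p that exact sign flips of 2 values allow is p = 0.5.

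The gene tables held 28263266 and 30862848 expected counts in replicates 1 and 2, where an expected count is the quantifier's estimate of the reads of a gene. Levels are given in TPM, the transcript abundance divided by length and scaled to a fixed total, which allows levels of different genes to be compared; a gene was called detected at a TPM of at least 1 in both libraries. All 8 cortex markers were detected, with summed levels of 941 and 1080 TPM, and 0 of 6 cerebellar markers were. The libraries differed in other markers. The 11 markers of striatal neurons, all detected, summed to 686 TPM in replicate 1 and 211 in replicate 2. Those of myelinating oligodendrocytes (8 of 8 detected) summed to 1091 and 712 TPM, while immediate early genes (9 of 9) summed to 175 and 294 TPM and red blood cell genes (5 of 5) to 815 and 1265 TPM. In bulk tissue, fewer cells of a type and less RNA per cell cannot be told apart.

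The proteasome consists of a barrel, the 20S core, closed at its ends by the 19S cap. The outer rings of the barrel are made of alpha subunits, which gate the entry, and the inner rings of beta subunits, some of which carry the proteolytic sites. The cap has a base, with a ring of ATPases that unfold the substrate and push it into the barrel, and a lid that removes the ubiquitin chain. In neurons the particle also shapes synapses, since synaptic proteins are among its substrates. Each constitutive subunit takes a fixed place in the particle, so the RNA levels of partners were compared per length within each ring.

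All 31 constitutive subunits were detected, between 26.7 and 118 TPM (mean of the libraries). Among the 12931 nuclear protein-coding genes detected in both libraries, whose median was 16.0 TPM in replicate 1 and 15.9 in replicate 2, the subunits lay at percentiles 66.2 to 94.3, with a median of 85.7. The SD of log2 TPM over the 31 subunits was 0.52 and 0.50 in the libraries, and over all detected protein-coding genes it was 1.81 and 1.84. Ranked by mean TPM, 20 of the 30 neighbouring pairs of subunits had the same order in both libraries. The 10 pairs whose order was not the same in both were Psma3 and Psmc3, Psmb6 and Psmb5, Psmb5 and Psmc1, Psmc5 and Psma6, Psmd3 and Psmb1, Psma4 and Psmc4, Psmc4 and Psmd13, Psmc2 and Psma1, Psmb2 and Psmd1, and Psmd11 and Psmd7. These neighbours did not differ beyond the spread between the libraries.

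**Figure D1:**
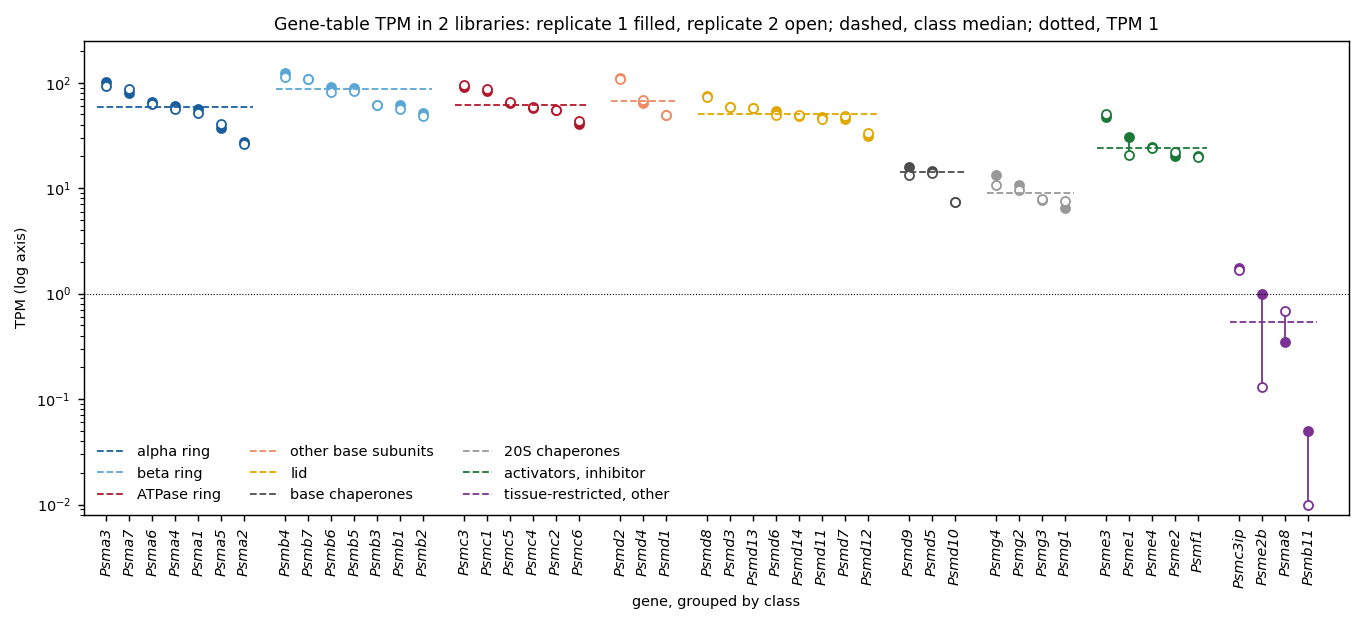
TPM of the 47 members on a log axis, grouped by class, with replicate 1 as filled and replicate 2 as open circles; a dashed line marks the class median and the dotted line a TPM of 1. By the mean of the libraries, the 31 constitutive subunits lie between 26.7 and 118 TPM, the 7 assembly chaperones between 7.06 and 14.6, and 3 members below the dotted line.

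The alpha ring was led by Psma3, which measured 102 and 93.7 TPM in replicates 1 and 2. Psma3 lies on chromosome 12 (mm10, 70974621 to 70996347, plus strand) and, as described below, has pseudogene copies. Psma7 followed with 79.4 and 86.6 TPM and Psma6 with 66.3 and 63.2 TPM. These 3 kept their order in both libraries. Psma4 measured 60.8 and 56.5 TPM, Psma1 56.4 and 51.9 TPM and Psma5 37.2 and 40.8 TPM. The lowest alpha subunit, and the lowest of all 31, was Psma2, on chromosome 13, with 27.3 and 26.2 TPM. The highest alpha subunit stood 3.65-fold above the lowest, the widest range of the 5 structural classes on this scale. Psma2 shares 8943 bases of its locus, on the same strand, with the protein-coding gene AW209491 (9.73 and 9.42 TPM). That overlap is one of gene spans. Of the 50-base words of Psma2-201, its highest transcript, 3.53% also occurred in another annotated gene. Most of these words were in the processed pseudogene Gm6474 (0.09 and 0.0 TPM). How reads of the overlapping genes were divided is not given in the sources used here, and its part in the low level was not tested.

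In the beta ring, Psmb4, which carries no active site, was the highest of all 31 subunits by gene TPM, with 124 and 113 TPM. Retained-intron transcripts held 50.9% and 40.0% of that level, so the rank is not one of coding RNA alone. By counts Psmb4 ranked 8 of the 31. It lies on chromosome 3 (94884093 to 94886961, minus strand). In the second quantification Psma3 was the highest instead, with 189 TPM against 168 for Psmb4. The 3 catalytic subunits came next. Psmb7, the trypsin-like subunit, measured 109 and 107 TPM. Psmb6, the caspase-like subunit, had 91.8 and 82.5 TPM and Psmb5, the chymotrypsin-like subunit and main target of proteasome inhibitor drugs, had 89.4 and 84.1 TPM. Psmb6 was above Psmb5 in replicate 1 and below it in replicate 2, so their order was not resolved, while Psmb7 was above both in each library. The remaining non-catalytic subunits were lower: Psmb3 at 62.0 and 61.8 TPM, Psmb1 at 60.9 and 56.5 TPM and Psmb2, the lowest, at 51.4 and 48.3 TPM. The median catalytic subunit exceeded the median non-catalytic beta subunit 1.46-fold (log2 ratio 0.54 ± 0.05, SD, n = 2). In the second quantification, described below, this log2 ratio was 0.26, and without division by length it was 0.04.

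The 6 ATPases of the base spanned a 2.23-fold range. Psmc3 was the highest (92.0 and 94.8 TPM; chromosome 2, 91054009 to 91066369), and Psmc1 was next at 83.9 and 87.5 TPM. Psmc5 (63.5 and 66.1 TPM), Psmc4 (56.9 and 58.3 TPM) and Psmc2 (54.8 and 54.9 TPM) formed a middle group. The lowest ATPase was Psmc6, with 40.3 and 43.7 TPM on chromosome 14. The 6 genes kept the same order in both libraries. Psmc6 did not keep its place in the second quantification, where it gained most among the detected members.

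The other base subunits of the set are the scaffold proteins Psmd1 and Psmd2, which receive ubiquitin-like domains and shuttle proteins, and the ubiquitin receptor Psmd4. Psmd2 was the second highest of all 31 subunits by TPM, at 110 and 108, and the highest by counts, at 5485 and 5699. Psmd4 measured 64.9 and 68.0 TPM. Psmd1, the partner of Psmd2 at the top of the cap, measured 49.1 and 49.9 TPM. The order of these 3 was the same in both libraries.

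The lid had the smallest SD of log2 TPM of the 5 structural classes. Its range from highest to lowest, 2.26-fold, was not the smallest, with 2.23-fold in the ATPase ring and 2.21-fold in the other base subunits. Its highest subunit, Psmd8, measured 74.1 and 73.2 TPM and its lowest, Psmd12, 31.6 and 33.5 TPM. Between them lay Psmd3 (59.4 and 58.2 TPM), Psmd13 (57.1 and 58.1 TPM), Psmd6 (53.7 and 49.1 TPM), Psmd14 (48.7 and 49.0 TPM), Psmd11 (47.6 and 45.6 TPM) and Psmd7 (44.8 and 48.2 TPM). Psmd14 is the deubiquitinase that cuts the ubiquitin chain off the substrate, and Psmd7 is the inactive partner with which it pairs. For each of the 8 lid genes the deposited TPM intervals of the libraries overlapped.

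The spread within each structural class was measured as the SD of log2(TPM + 0.1) over its genes. It was 0.64 in the alpha ring, 0.58 in the other base subunits, 0.47 in the beta ring, 0.43 in the ATPase ring and 0.34 in the lid (mean of the libraries). The class whose spread differed most between the libraries was the lid, with 0.36 and 0.33. The order changed with the measure: in CPM, counts scaled to the library total and not divided by length, the alpha ring had the smallest spread, 0.30, and the other base subunits the largest, 0.96. In the second quantification the alpha ring again had the largest spread, 0.84, and the lid the smallest, 0.32. Across the 31 subunits, longer transcripts went with lower TPM (Spearman's rho -0.44, a description over genes of the same libraries, and TPM itself is divided by length).

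Between classes, the median beta subunit was 1.47-fold above the median alpha subunit in the gene tables (log2 ratio 0.55 ± 0.01, SD, n = 2). That difference was nearly gone in the second quantification, where the log2 ratio was 0.02, and it was 0.22 without division by length. The median 19S subunit was slightly below the median 20S subunit, with a log2 ratio of -0.14 ± 0.05, and in the second quantification the ratio was -0.35. Without division by length the sign turned, to 0.38; the median gene length in replicate 1, as listed in the gene table, was 1379 bases for the 19S genes and 1011 for the 20S genes. The median ATPase exceeded the median lid subunit 1.22-fold (log2 ratio 0.29 ± 0.08). ATPases and alpha subunits were not separated, with a log2 ratio of 0.06 ± 0.11.

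In the gene tables, all 7 assembly chaperones of the set measured below every constitutive subunit. The chaperones of the base, which bind the ATPases and leave before the particle is complete, measured 15.8 and 13.3 TPM for Psmd9, 14.6 and 14.0 TPM for Psmd5 and 7.40 and 7.43 TPM for Psmd10, known as gankyrin. Psmd9 was above Psmd5 in replicate 1 and below it in replicate 2. The chaperones of the 20S core act as the pairs Psmg1 with Psmg2 and Psmg3 with Psmg4. Psmg4 was the highest of them at 13.2 and 10.7 TPM, Psmg2 had 10.8 and 9.69 TPM, Psmg3 7.77 and 7.84 TPM and Psmg1, the lowest, 6.49 and 7.63 TPM. Psmg2 was above Psmg1, and Psmg4 above Psmg3, in both libraries. The median 20S subunit stood 7.03-fold above the median 20S chaperone (log2 ratio 2.81 ± 0.03), and the median 19S subunit 4.13-fold above the median base chaperone (2.05 ± 0.11). These differences were of similar size in the second quantification, with log2 ratios of 3.01 and 2.85 for the first and 1.99 and 2.07 for the second in replicates 1 and 2. The full separation was not kept there. Psmd5 was above the subunit Psma2 in replicate 1 (38.1 against 30.4 TPM) and below it in replicate 2 (26.3 against 31.8 TPM). Pomp, a further 20S assembly factor outside the symbol rule, did not share the low level, at 62.8 and 71.2 TPM.

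The activators open the barrel at its ends without the ATPase cap. Psme3, which forms the nuclear activator PA28-gamma, was the highest with 46.9 and 50.7 TPM, a level within the range of the subunits. Psme1 and Psme2 form the interferon-inducible activator PA28-alpha-beta. Psme1 had 30.3 and 20.5 TPM, and Psme2 had 20.01 and 21.9 TPM. In the gene tables the partners were closer in replicate 2 than in replicate 1, and their deposited intervals overlapped in both; in the second quantification Psme1 was above Psme2 in both libraries, at 53.9 and 46.3 TPM against 28.1 and 25.5. Psme4, the large activator PA200, measured 24.3 and 24.1 TPM. Psmf1, the inhibitor PI31, had 20.1 and 19.8 TPM, the lowest mean of the class, but Psme2 was below it in replicate 1 and in the second quantification, so their order was not resolved.

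Psme1 was the only member whose deposited TPM intervals did not overlap between the libraries. The interval ran from 27.4 to 37.1 in replicate 1 and from 19.3 to 26.2 in replicate 2, and the level was 1.48-fold higher in replicate 1. On counts the gap was smaller: 444 and 380 expected counts gave a ratio of 0.78 per library total, with an exact 95% binomial interval of 0.68 to 0.90 that covers counting error only. The transcripts of Psme1 were divided differently in the libraries. The protein-coding Psme1-208, of 1112 bases, held 53.0% of the gene's TPM in replicate 1 and 75.5% in replicate 2. A nonsense-mediated decay transcript of 439 bases, Psme1-209, held 29.0% and 14.3%, and a retained-intron transcript of 724 bases, Psme1-207, held 12.4% and 1.34%.

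The PA28-beta gene Psme2 has a near-copy among the members, Psme2b, whose single transcript of 837 bases spans its locus without an intron. Psme2b measured 0.99 and 0.13 TPM, from 13.9 and 1.90 expected counts. The coding sequences have 693 bases in Psme2 and 717 in Psme2b. Aligned over 717 columns, they had 680 identical bases, 13 mismatches and 24 gap columns, that is, 98.1% identity outside the gaps. The following 100-base stretches, read from the GENCODE transcripts, show how little separates the copies; capitals mark the 3 mismatches, and the stretches are coding bases 420 to 519 of Psme2 (chromosome 14, 55588049 to 55588286 on mm10, minus strand, spliced) and 444 to 543 of Psme2b (chromosome 11, 48945576 to 48945675, minus strand).
Psme2: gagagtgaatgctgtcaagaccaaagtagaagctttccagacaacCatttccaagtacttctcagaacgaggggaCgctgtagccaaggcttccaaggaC
Psme2b: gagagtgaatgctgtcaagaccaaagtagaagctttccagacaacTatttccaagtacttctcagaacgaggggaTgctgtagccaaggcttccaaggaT
The main Psme2 transcript, Psme2-201, held 36.8% and 37.4% of the gene's TPM, but 0% in the second quantification. Of its 50-base words, 62.1% also occurred in another gene, all 463 of them in Psme2b. Of the words of Psme2b 69.3% did, 541 of 546 in Psme2. Reads from such stretches can be told apart only at the marked bases, so the counts of Psme2b are uncertain.

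The remaining low members belong to other tissues or are not proteasome genes. Psma8, the alpha subunit of testis proteasomes, measured 0.35 and 0.69 TPM from 4 and 12 counts. Psmb11, the beta subunit of the thymus proteasome, measured 0.05 and 0.01 TPM from 4 and 1 counts. Among 6 germ cell markers only Dazl reached a TPM of 1 (1.43 and 1.34 TPM), and the spermatid genes Tnp1 and Prm1 had 0 counts in both libraries, which allows up to 0.106 and 0.097 CPM at a floor of 3 counts. Psmc3ip, a meiotic recombination factor named for binding Psmc3, had 1.74 and 1.68 TPM from 35 and 34 counts, and its highest transcript was not protein-coding: the retained-intron transcript Psmc3ip-202 held 50.03% and 69.3% of its TPM.

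The immunoproteasome subunits replace the catalytic ones in cells exposed to interferon and in immune cells. Psmb8 measured 0.79 TPM in replicate 1, with a mean of 1.02 ± 0.33 TPM (SD, n = 2), from 17 and 23 counts, where its constitutive counterpart Psmb5 had 89.4 and 84.1 TPM. Psmb9, the counterpart of Psmb6, measured 0.40 and 0.82 TPM, from 7 and 6 counts. Psmb10, the counterpart of Psmb7, stood apart from the other two with 35.7 and 36.8 TPM, from 421 and 491 counts, against 109 and 107 TPM for Psmb7. The 6 microglia markers, genes of the resident immune cells, were all detected and summed to 137 and 134 TPM.

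Genes that act with the particle were taken from a list of 34 symbols, some of them older names of listed genes. Of the symbols, 31 were matched and 29 were detected. The 2 below a TPM of 1 in a library were Psmb8 and Psmb9. The highest was Ubb, a polyubiquitin gene, with 846 and 779 TPM. Rps27a, which encodes ubiquitin fused to a ribosomal protein, measured 178 and 185 TPM, and the ubiquitin-activating enzyme Uba1, with 183 and 178 TPM, could not be ordered against it. These 3 genes exceeded every proteasome subunit in both libraries. Subunits and partners outside the symbol rule lay within the range of the members: the ubiquitin receptor Adrm1 had 52.5 and 47.2 TPM, the deubiquitinase Usp14 70.4 and 74.6 TPM, and its counterpart Uchl5 15.2 and 16.1 TPM. The small lid subunit Sem1 measured 22.8 and 24.1 TPM, below all 31 subunits of the set. Nfe2l1, the transcription factor that raises proteasome genes when the particle is inhibited, measured 87.9 and 95.2 TPM, and its relative Nfe2l2 4.24 and 5.93 TPM.

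Between the libraries the constitutive subunits were close. Differences were taken as log2 CPM of replicate 2 minus replicate 1. A gene was called where 1 library exceeded the other by more than 25%, a size with no p-value behind it. Of the 31 subunits 0 were called, where 24.6% of all 18965 genes tested were called in either direction, and 10.9% of the 12624 genes whose counts averaged 100 or more, a group that holds all 31. The differences of the subunits ran from -0.15, for Psmb6, to 0.13, for Psmc3, and their median size was 0.06, against 0.14 over all genes tested and 0.10 over genes with at least 100 counts. These groups were not matched for depth. Each subunit had 732 or more counts in each library, and genes with fewer counts differ more by counting error. Whether the subunits were closer than genes of like counts was not tested. The count of 0 subunits called held under each of the 7 other scalings, filters and quantifications tried.

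Of all members, 46 had enough counts, at least 10 in a library, to be tested. Psma8 was the 1 member called higher in replicate 2, against 10.7% of all genes tested, and Psme2b and Psmg4 were the 2 called lower, against 13.9%. For Psma8 the 4 and 12 counts gave a ratio per library total of 2.75, with an exact 95% binomial interval from 0.83 to 11.7. For Psme2b the rounded 14 and 2 counts gave 0.13, with an interval of 0.01 to 0.57, and the division of reads with Psme2 is uncertain as shown above. For Psmg4 the 107 and 90 counts gave 0.77, with an interval from 0.58 to 1.03. The intervals of Psma8 and Psmg4 thus included 1. Among the 42 members whose counts averaged 100 or more, 0 were called higher, against 4.9% of such genes, and 0 lower, against 5.95%, with the scaling of all genes. Psme1, at a log2 difference of -0.32, lay just inside the limit and passed it under 3 of the alternatives (library totals only, a prior count of 0.5, and genes with at least 100 counts).

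The signs of these small differences were counted by complex, and the difference between the complexes was not tested. In the 20S core 11 of 14 subunits were lower in replicate 2, with a median difference of -0.07, and in the 19S cap 9 of 17 were, with a median of -0.0047. Over all members 29 were lower and 17 higher, with a median of -0.02, and the median over all genes tested was -0.0002. These small shifts depended on scaling: with spike-in totals 8 of 14 core subunits and 5 of 17 cap subunits were lower, the median of the cap was 0.03 and that of all members 0.01. Among the related genes 20 were higher and 10 lower. Of these 30, 2 were called higher, against 10.7% of all genes tested, and 0 lower, against 13.9%. The 2 were Nfe2l2 (1.37-fold, from 190 and 279 counts) and the ubiquitin-activating enzyme Uba6 (1.29-fold, from 646 and 893 counts).

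The marker genes that set the libraries apart moved by much more. All 11 striatal markers were called lower in replicate 2, with a median log2 difference of -1.90, and 7 of 8 myelinating oligodendrocyte markers were called lower, with a median of -0.61. Called higher were 8 of 9 immediate early genes (median 0.77), 5 of 5 red blood cell genes (median 0.64), 4 of 6 upper-layer neuron markers (median 0.49) and 4 of 8 cortex markers (median 0.37). Of the cerebellar markers, none of which reached a TPM of 1 in both libraries, all 4 with enough counts were called higher (median 1.39; 0.67 and 2.29 TPM summed over the 6). None of the 6 microglia markers was called. The part of these cell populations in the differences of Psme1, Psmg4 and the 20S subunits was not tested.

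**Figure D2:**
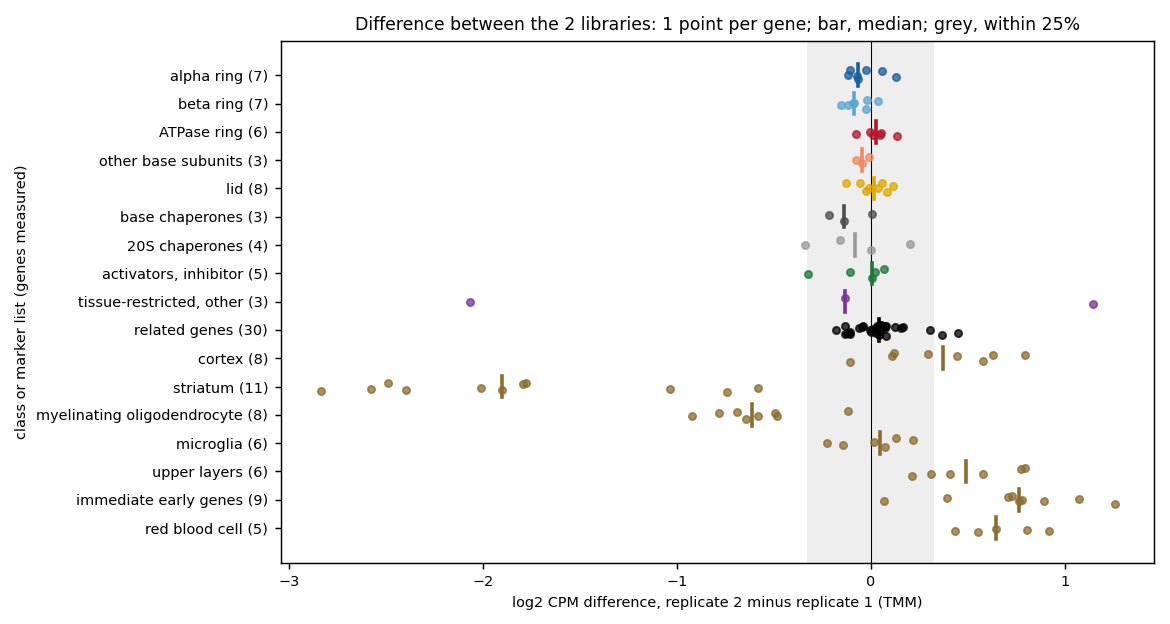
Log2 CPM difference of replicate 2 minus replicate 1, 1 point per gene with at least 10 counts in a library, a bar at the median of each class or marker list, and grey shading where the libraries are within 25% of each other. The 31 constitutive subunits lie between -0.15 and 0.13, and the striatal and myelinating oligodendrocyte markers have medians of -1.90 and -0.61.

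The 47 members have 257 annotated transcripts, 104 of them protein-coding. Most detected members were carried by 1 transcript: in 36 of 44 the highest transcript took more than 50% of gene TPM in each library, and in 25 of 44 more than 75%. Protein-coding transcripts held a median of 91.9% and 93.1% of a member's TPM in replicates 1 and 2. Psma5 and Psmb5 each had 100% in 1 transcript. In the second transcript table, described below, the highest transcript took more than 50% in each library in 34 of 44 members. It took more than 75% in 15 of 44. There Psma5 again had 100% in 1 transcript, while Psmb5-201 held 70.3% and 74.7% of Psmb5.

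The highest transcript was taken by the mean of the libraries. In 8 members it held under 50% in at least 1 library. Psma3 was the most divided subunit: its protein-coding transcript Psma3-204 held 30.4% and 27.8%, with the rest spread over nonsense-mediated decay, retained-intron and other coding transcripts. In Psmb4, the highest subunit by gene TPM, the coding transcript Psmb4-201 held 49.1% and 60.0%, and 4 retained-intron transcripts held the rest. Psmd13-208 held 33.0% and 35.1% of Psmd13, close to the nonsense-mediated decay transcript Psmd13-211 at 33.2% and 28.9%. The others were the ubiquitin receptor Psmd4 (Psmd4-202, 49.9% and 51.9%), the chaperones Psmd5 (Psmd5-201, 47.6% and 46.0%), Psmd9 (Psmd9-201, 38.5% and 43.7%) and Psmg4 (Psmg4-202, 63.3% and 47.2%), and the activator Psme2 (Psme2-201, 36.8% and 37.4%). In Psmd9 another coding transcript, Psmd9-204, led in replicate 1 with 41.6%, in Psmg4 the coding Psmg4-201 led in replicate 2 with 52.8%, and in Psmd13 the decay transcript led narrowly in replicate 1. A short annotated fragment can carry a large share of TPM from few reads, since TPM is divided by length.

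**Figure D3:**
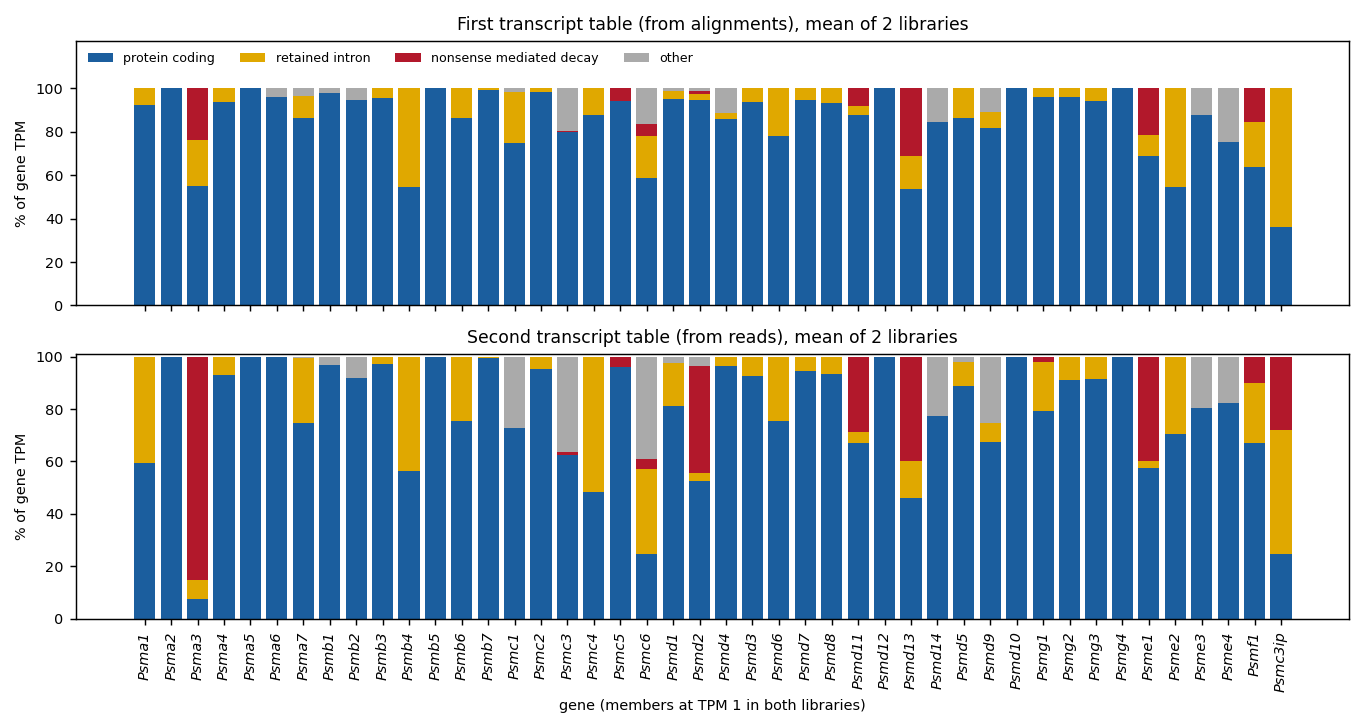
Share of each gene's TPM in protein-coding, retained-intron, nonsense-mediated decay and other transcripts for the 44 detected members, mean of 2 libraries, in the first transcript table (top) and the second (bottom). The median protein-coding share is 91.9% and 93.1% in the libraries at the top and 81.7% at the bottom, where Psma3 has 7.69% and Psmc6 24.9%.

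The second transcript table, derived from the reads directly rather than from their alignments, gave a check on these values. Its TPM summed per gene was 1.63 times that of the gene tables in the median over the 44 detected members, a shift that also holds the different base of TPM in that table, and the order of the 31 subunits was largely kept (Spearman's rho 0.84 over genes of the same libraries). After the median shift was removed, the detected members that gained most were the ATPase Psmc6 (log2 0.65; 42.0 TPM in the gene tables and 108 in the second), the chaperone Psmd5 (0.46) and the alpha subunit Psma1 (0.44). The detected members that lost most were Psma2 (-0.49; 26.7 and 31.1 TPM), Psmd4 (-0.45) and Psmd10 (-0.37). Psma2 was the lowest subunit in both quantifications.

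The same highest transcript was named by both tables for 37 of 44 members. The exceptions were Psma3, Psmb1, Psmc6, Psmd5, Psmd8, Psmd13 and Psme2. For Psma3 the second table put 46.3% on the nonsense-mediated decay transcript Psma3-201, which held 14.2% and 25.01% in the first. The second table put 34.9% of Psmc6 on the processed transcript Psmc6-206, which held 4.72% and 12.6% in the first, and 24.9% on the coding Psmc6-201, which held 62.6% and 55.0%. For Psma1, whose main transcript was the same in both tables, the second table placed 35.2% on the retained-intron transcript Psma1-202, where the first had 2.16% and 0.79%. The median protein-coding share in the second table was 81.7%. The gains of Psmc6 and Psma1 thus came with larger shares on short transcripts that code for no protein.

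**Figure D4:**
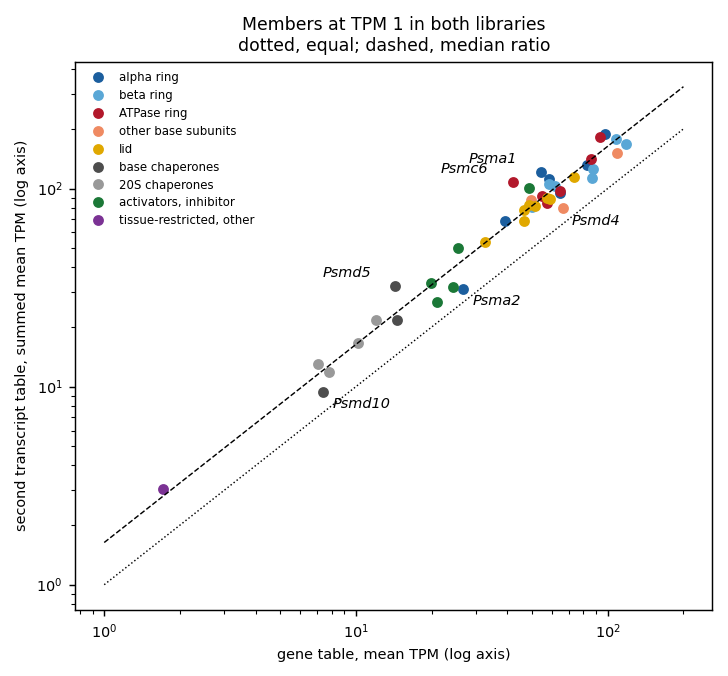
Mean TPM of the 44 detected members in the gene tables (horizontal, log axis) and summed from the second transcript table (vertical, log axis), coloured by class; dotted line, equal values; dashed line, the median ratio of 1.63. The 6 named genes, Psmc6, Psmd5 and Psma1 above and Psma2, Psmd4 and Psmd10 below the dashed line, lie farthest from it.

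Sequence of some members also occurs in other annotated genes, in copies or in genes that overlap the same locus. The highest transcript of 24 of the 47 shared at least 1 word of 50 bases with another annotated gene, 13 shared over 10% of their words and 6 over 50%. The share over all genes was not computed. Not all of these are copies: Psmb7 and Psmg3 shared words with Nek6 and Gm26938, which overlap their loci. In Psmd5, 30 words occurred across 575 other genes. Psma3 shared the most, 78.5% of the words of Psma3-204, with the processed pseudogene Gm13835 as its main copy (11.4 and 12.9 TPM). Psma3-204 held 30.4% and 27.8% of the gene's TPM in the first transcript table and a mean of 0.001% in the second. Psmb5 shared 57.1%, mainly with the pseudogene Gm3375 (8.48 and 10.3 TPM). Psmb3 shared 55.8%, mainly with AC114990.1 (9.32 and 7.12 TPM), and Psma5 55.4%, mainly with Gm8394 (6.98 and 7.0 TPM). The others over 50% were Psme2 and Psme2b. The levels listed for these copies were below those of their members, and how the reads were divided cannot be checked from the tables.

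Overlaps were also found with expressed neighbours. Psmb7 shared 28.1% of its words with Nek6, a kinase gene on the opposite strand (12.5 and 13.2 TPM). The processed pseudogene Gm15542 (13.6 and 21.4 TPM) overlaps Psmd13 over 1194 bases on the same strand. Psmc3 overlaps Slc39a13, a zinc transporter gene on the opposite strand, over 4579 bases (11.5 and 11.9 TPM), with no shared word. The use of strand in counting is not given in the sources used here, so reads of such pairs may be shared.

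To see what the members share in sequence, RefSeq promoter windows of 300 bases around each annotated start (GRCm38.p6) were searched on both strands for 10 short motifs, chosen after the data had been seen. Windows existed for 39 of the 47 members, 42 in all. The core letters of the antioxidant response element, TGACNNNGC, which Nfe2l1 is known to bind, occurred in 14.3% of the members' windows (6 of 42), close to 12.4% of all 32851 windows and 13.9% of the 8435 windows of genes at a TPM of 10 or more in both libraries. The core letters bound by Ets factors, CCGGAAG, occurred in 38.1% (16 of 42), against 8.86% of all windows and 17.4% of those of the expressed genes. GGGCGG, the Sp1 box, was in 54.8%, against 35.7% and 64.7%, and CCAAT in 33.3%, against 37.4% and 36.7%. TATAAA was in 7.14% (Psmb4, Psmd1 and Psmd6), against 13.6% and 6.54%, and TGACGTCA, the cAMP response element, in 0 of 42, against 1.79% and 3.18%. The other 4 motifs, which were CACGTG, GCCATNTTG and those of the nuclear respiratory factor and of Zfp143, each had matches in at most 3 windows. Matches were counted for each motif whether or not they overlapped those of another, and a match describes letters only.

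The stretches below show the antioxidant response core, in capitals, upstream of both catalytic subunits that carry it, Psmb5 (chr14:54618014-54618062, minus strand, match ending 39 bases before the RefSeq start) and Psmb6 (chr11:70525328-70525356, plus strand, 1 base before), and of the base chaperone Psmd9 (chr5:123228139-123228187, plus strand, 23 bases before) and the ATPase Psmc6 (chr14:45329577-45329625, plus strand, 219 bases before). All are written along the gene's strand, and in Psmc6 the match is on the opposite strand.
Psmb5: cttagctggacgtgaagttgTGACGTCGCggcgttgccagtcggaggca
Psmb6: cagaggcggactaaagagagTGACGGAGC
Psmd9: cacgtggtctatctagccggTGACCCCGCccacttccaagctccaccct
Psmc6: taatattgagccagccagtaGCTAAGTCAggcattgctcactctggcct
The levels of these 4 ranged widely, from a mean of 14.6 TPM for Psmd9 to 87.1 for Psmb6. In Psmb5, Psmb6 and Psmd9 the match lies on the gene's own strand and ends at most 39 bases before the start. Not shown are Psmd12, with an opposite-strand match 239 bases before the start, and Psme4, whose match does not lie wholly upstream of the start.

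The Ets core, the motif whose share among the members differed most from that of the expressed genes, is shown in capitals for the highest member that holds it, Psmd2 (chr16:20651606-20651651, plus strand, opposite-strand match), for the ubiquitin receptor Psmd4 (chr3:95042713-95042759, minus strand), the lid subunit Psmd11 (chr11:80428584-80428614, plus strand, opposite-strand match), the activator Psme3 (chr11:101316086-101316132, plus strand) and the chaperone Psmg1 (chr16:95991003-95991049, minus strand).
Psmd2: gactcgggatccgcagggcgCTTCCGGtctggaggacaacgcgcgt
Psmd4: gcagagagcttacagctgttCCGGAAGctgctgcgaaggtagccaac
Psmd11: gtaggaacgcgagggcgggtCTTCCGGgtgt
Psme3: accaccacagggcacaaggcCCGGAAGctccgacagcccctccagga
Psmg1: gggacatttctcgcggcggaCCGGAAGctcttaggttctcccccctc
By class, this core was found in 1 of the 11 members of the 20S core with a window (Psma6) and in 9 of the 14 of the 19S cap (Psmc1, Psmc2, Psmc6, Psmd2, Psmd4, Psmd6, Psmd11, Psmd12 and Psmd13). It was also found in 2 of 6 chaperones (Psmg1 and Psmg3), 2 of 5 activators or inhibitors (Psme3 and Psme4) and Psmc3ip. The mean levels of these 15 members ran from 1.71 TPM for Psmc3ip to 109 for Psmd2. No test was made of the difference between the core and the cap, which was noticed in these data.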

How the data were processed

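Total RNA of 2 libraries was sequenced. Per the deposited description files, alignments on mm10 with GENCODE M21 gave the gene table and the first transcript table, and the reads themselves gave the second transcript table. The deposited expected counts are raw estimates of reads. The deposited TPM takes in spike-ins, and the deposited FPKM divides by effective length and by the reads assigned. The interval bounds for TPM, a signal column deposited per library, and the deposited percent of a gene's TPM in each transcript were used as given. Column names match those of RSEM and kallisto. Not given in the sources used here are the aligner, the quantifiers with their versions, and whether strand was used.

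Symbols came from the second transcript table, matched by gene identifier to GENCODE M21. The 96 spike-in entries were left out of the genes and of library sizes, while the deposited TPM, whose total takes them in, was not rescaled. Differences between libraries were computed from rounded expected counts as log2 CPM after TMM scaling and with prior count 2 (edgeR 4.0.16, R 4.3.3), keeping genes that reached 10 counts in a library; DESeq2 1.42.0 gave alternative size factors. This step and the motif search were tested on simulated data. Levels used log2(TPM + 0.1), which hardly alters genes far above 0.1 TPM. Binomial intervals and the floor of 3 counts cover counting error only. Python 3.11.15 with pandas 2.3.3, numpy 2.4.6, matplotlib 3.10.9 and scipy 1.17.1 served for the rest.

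The members, the classes, the related genes and the marker lists were chosen with earlier results of these data known. Beside all members by class, the text names by rule the highest and lowest of each class, catalytic subunits, members below a TPM of 1 in a library or over 25% apart between libraries, the 3 largest shifts each way between quantifications, members whose highest transcript is not protein-coding or is under 50%, copies and overlapping neighbours, and of the related genes the 4 highest, not all of which are reported here, and those below a TPM of 1. Other related genes were named for their role, and Nfe2l2 and Uba6 after their values were seen. Of the related symbols, Paaf1, Shfm1 and AI314180 were not matched. Shfm1 and AI314180 are older symbols of Sem1 and Ecpas, which were matched. Alternatives covered scaling, prior count, filters, quantification, length, pseudocount and each library alone.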

Additional observations from a re-analysis of the deposited data

How the results depend on the processing

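Of 73 alternatives, 49 left the result unchanged, 23 moved it and 1 reversed it. Unchanged meant a value within the SD of the libraries or a count within 1.5 times. For the median difference of the members, the SD over the members was used. A median level, spread or ratio from a single library always lies within the SD of the libraries, so those alternatives could not come out otherwise. Detection of 44 members at a TPM of 1 became 43 at a TPM of 5. The median level of the 47 members, 49.1 TPM in each library, was 82.8 in the second quantification, 105 as TPM over nuclear protein-coding genes, 32.5 in FPKM and 52.2 without the 3 low members and Psmc3ip. The spread of the alpha ring was 0.84 in the second quantification, 0.63 with a pseudocount of 1 and 0.30 in CPM; that of the beta ring was 0.41, 0.47 and 0.62 under the same settings. The ATPase ring had 0.33 in CPM, the other base subunits 0.50 in the second quantification and 0.96 in CPM, and the lid 0.32 and 0.40. The ratio of 19S to 20S medians (log2 -0.14) was -0.35 in the second quantification and turned to 0.38 in CPM, which is not divided by length. The cause of the shifts between quantifications was not tested. In single libraries the spreads ran from 0.63 to 0.64, 0.47 to 0.48, 0.42 to 0.43, 0.56 to 0.59 and 0.33 to 0.36 in these classes, the 19S to 20S ratio from -0.17 to -0.11, and the members with 1 transcript over 50% from 37 to 38, against 36 in both and 25 at 75%.

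With scaling refitted on genes of at least 100 mean counts, 0 members were called higher and 1 lower in replicate 2 (Psme1, in place of Psma8, Psme2b and Psmg4, none of which reaches that mean), and with spike-in totals 1 was called lower (Psme2b). The median difference of the members ran from -0.05 in the second quantification to 0.01 with spike-in totals, the only one of its 7 alternatives with the opposite sign. Counts set the limit for Psma8, Psmb11, Psme2b, Psmb8 and Psmb9, each below 25 counts in a library. No paired analysis was possible because both libraries belong to 1 group.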
